A study of Mus musculus with 15 samples.

Results

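Transcript levels of 5 genes of urate handling, Slc2a9, Slc17a1, Slc17a3, Abcg2 and Xdh, were read from RNA-Seq of single microdissected mouse proximal tubules and of whole mouse kidney. The 5 genes were chosen by symbol out of 47069 genes in the table, and all 5 were found. They are urate transporters of the kidney plus the enzyme that makes urate. The urate carrier URAT1, encoded by Slc22a12, is not among the 5. The series asks how transcripts of particular renal cell types are represented in RNA-Seq data of the whole organ. Both kinds of sample came from male C57BL/6 mice aged 2 months, with no allele or treatment named. There were 12 libraries labelled PTS2, each from a single tubule, in 3 sets of 4 named m1, m2 and m3, and 3 libraries of whole kidney. The labels do not say what the letter m or the numbers 1 to 4 stand for, or whether libraries came from separate animals, so p-values measure only the spread between these libraries, which may be technical. Values were TPM, a transcript abundance scaled to transcript length and to a common total per library. Since TPM do not carry read numbers, the depth of the libraries is unknown and values are given without counting error.

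Urate is the last product of purine breakdown in most tissues. Xanthine dehydrogenase, encoded by Xdh, is a molybdenum enzyme that oxidises hypoxanthine to xanthine and xanthine to urate. Mice, unlike humans, keep a working urate oxidase (Uox) in the liver that degrades urate further. The proximal tubule both reabsorbs urate from the filtrate and secretes it. Slc2a9 encodes GLUT9, a facilitative urate carrier that in mouse kidney is best known from the distal convoluted tubule. Slc17a1 and Slc17a3 encode apical carriers of the SLC17 family that export urate and other organic anions. Abcg2 encodes an ATP-driven apical pump that secretes urate and many drugs.

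The tubules were checked against marker genes of other kidney cells. The summed level of 3 distal convoluted tubule markers was 0 to 0.55 TPM in the tubules and 202 to 212 TPM in whole kidney. For 4 intercalated cell markers these ranges were 0 to 0.42 TPM and 139 to 146 TPM, and for 4 podocyte markers 0.94 to 3.20 TPM and 89.4 to 112 TPM. The 7 endothelial markers summed to 26.8 to 106 TPM against 324 to 344 TPM, and the 5 macrophage markers to 23.7 to 77.2 TPM against 74.0 to 97.0 TPM. Of these 5, Cd68, C1qa, C1qb and Adgre1 were lower in every tubule than in every kidney, with means of 8.04% to 15.9% of the kidney mean. Csf1r went the other way, with a mean of 39.1 TPM in the tubules and 21.1 TPM in whole kidney and overlapping ranges (0.77 on the log2 scale, adjusted p = 0.0481). The 5 markers of the connecting tubule and principal cell summed to 8.62 to 50.1 TPM against 889 to 1170 TPM. Of the mean sum of 20.1 TPM in the tubules, Aqp3 held 18.4 TPM, whereas Scnn1b, Scnn1g and Calb1 were each at 0.70 TPM or less. One library stood apart: m3 replicate 3 held 1441 TPM of 5 thick ascending limb markers, whereas the next tubule held 55.8 TPM and the kidney libraries 2425 to 2723 TPM. Of the neighbouring proximal segments, the 2 S1 markers summed to 36.0 to 79.8 TPM against 710 to 767 TPM, and the 3 S3 markers to 1922 to 3626 TPM against 1154 to 1573 TPM. Both S1 markers were lower in every tubule than in every kidney, Slc5a2 with a mean of 0.112% of the kidney mean and Slc2a2 at 35.1 to 78.4 TPM against 112 to 123 TPM. Of the S3 markers Slc7a13 was higher without overlap, at 1367 to 2141 TPM against 652 to 909 TPM. Atp11a was called higher (0.62, adjusted p = 0.00898) with overlapping ranges. Cyp7b1 did not pass (0.98, adjusted p = 0.0926), and at 96.8 TPM m1 replicate 4 was below all kidneys, which were at 204 to 231 TPM. The label reads S2.

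Slc17a1 and Slc17a3 lie next to each other on chromosome 13 and point the same way. In the GENCODE annotation of GRCm38, Slc17a3 (ENSMUSG00000036083) spans chr13:23839434-23860716 and Slc17a1 (ENSMUSG00000021335) spans chr13:23867750-23895730, both on the plus strand, with 7033 bases between them. Slc2a9 (ENSMUSG00000005107) lies on the minus strand at chr5:38349273-38503143. Abcg2 (ENSMUSG00000029802) lies on the plus strand at chr6:58584523-58695676. Xdh (ENSMUSG00000024066) lies on the minus strand at chr17:73883895-73950196. No exon of another annotated gene overlapped an exon of the 5. The longest protein-coding transcripts of Slc17a1 and Slc17a3 shared 59.9% of 1938 aligned bases, with no identical run longer than 14 bases.

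The 250 bases before the first annotated start of Slc17a1 and the start of its neighbour Slc17a3 are shown. The pair was chosen because both transcripts were more abundant in the tubules. The window of the second start of Slc17a1 is not shown. The sequences and starts are those of RefSeq on GRCm38.p6, read 5′ to 3′ on the plus strand, and the capitals mark a match to the motif described after them.
Slc17a1, start 1, chr13:23868768-23869017: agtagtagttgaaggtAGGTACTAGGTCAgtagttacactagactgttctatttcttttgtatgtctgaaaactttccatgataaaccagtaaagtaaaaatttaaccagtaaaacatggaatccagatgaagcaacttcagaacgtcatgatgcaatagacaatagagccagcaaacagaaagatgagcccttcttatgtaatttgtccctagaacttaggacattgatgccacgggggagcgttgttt
Slc17a3, chr13:23839184-23839433: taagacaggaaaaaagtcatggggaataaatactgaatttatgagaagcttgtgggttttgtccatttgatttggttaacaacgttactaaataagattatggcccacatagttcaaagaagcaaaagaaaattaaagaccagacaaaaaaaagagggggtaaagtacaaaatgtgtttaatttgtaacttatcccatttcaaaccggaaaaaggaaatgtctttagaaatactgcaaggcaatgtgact

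The promoter windows were searched on both strands for the motif of HNF4 factors, transcription factors of the proximal tubule, which is AGGTCA repeated after 1 base, allowing 2 mismatches among the 12 fixed letters. The first Slc17a1 window held 1 match, AGGTACTAGGTCA, from 234 to 222 bases before the start. The window of the second annotated start of Slc17a1, the Slc17a3 window, the 1 window of Slc2a9 and the 3 windows of Abcg2 held no match at this setting. All windows of Slc17a1 and Slc2a9 lie inside the GENCODE spans given above, so the bases before those spans were not searched. Of 32851 mouse promoter windows of the same length, 3.24% held a match. A match describes letters and is not evidence of binding.

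By level, the 5 genes fell into 2 groups. Slc17a1 (mean 1403 ± 96.2 TPM, SD, n = 12), Slc17a3 (1249 ± 97.7) and Abcg2 (674 ± 63.4) were among the most abundant transcripts of the tubules, ranked 97, 114 and 232 of 47069 genes. Xdh (4.37 ± 0.50 TPM) and Slc2a9 (1.68 ± 0.45 TPM) ranked 8417 and 10387. In whole kidney the order of the means was the same. TPM are levels per transcript length and can be set side by side between genes within a library. Slc17a1 exceeded Slc17a3 in 11 of 12 tubules and 3 of 3 kidneys, although the ranges of the pair overlapped across tubules. The ratio of Abcg2 to Slc2a9 was between 273 and 647 in the tubules. Xdh exceeded Slc2a9 in all 15 libraries.

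**Figure D1:**
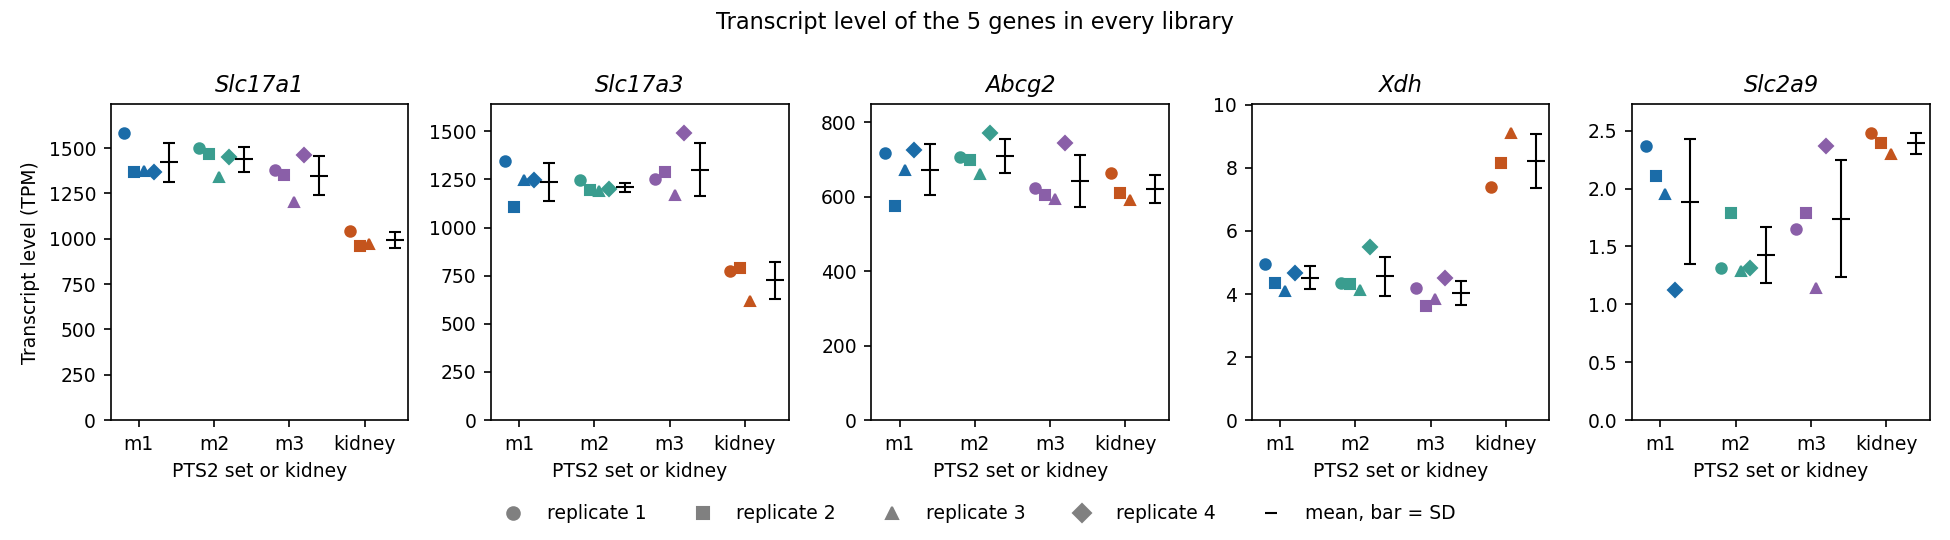
Each panel plots the level of 1 gene in TPM (linear axis from 0) in every library of the PTS2 sets m1, m2 and m3 (n = 4 each) and of whole kidney (n = 3), with the symbol giving the replicate number and the black bar the mean and SD. All tubules lie above all kidneys for Slc17a1 and Slc17a3 and below them for Xdh, whereas Abcg2 and Slc2a9 overlap.

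The secretory carriers came first in level. Slc17a1 was at 1583, 1369, 1371 and 1366 TPM in m1 replicates 1 to 4, at 1500, 1466, 1338 and 1449 TPM in those of m2, and at 1377, 1353, 1204 and 1461 TPM in those of m3. The kidney libraries were at 1043, 961 and 970 TPM. Every tubule was above every kidney, and the lowest tubule was m3 replicate 3, the library with thick ascending limb markers. The difference was 0.50 ± 0.07 on the log2(TPM + 1) scale (SE, limma, Benjamini-Hochberg adjusted p = 1.37e-05), with a 95% interval of 0.35 to 0.64. Without m3 replicate 3 it was 0.52.

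Slc17a3 was at 1348, 1108, 1247 and 1250 TPM in m1 replicates 1 to 4, at 1245, 1198, 1192 and 1200 TPM in those of m2, and at 1254, 1287, 1167 and 1491 TPM in those of m3. The kidney libraries were at 774, 787 and 617 TPM. Again all 12 tubules were above all 3 kidneys, with m3 replicate 4 the highest. The log2 difference was 0.79 ± 0.08 (SE, adjusted p = 7.12e-07), with a 95% interval of 0.61 to 0.96. The ratio of Slc17a1 to Slc17a3 was 0.979 to 1.24 in the tubules and 1.22 to 1.57 in whole kidney, ranges that overlapped at their ends.

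Abcg2 was at 717, 576, 672 and 725 TPM in m1 replicates 1 to 4, at 705, 699, 661 and 771 TPM in those of m2, and at 622, 605, 593 and 745 TPM in those of m3. The kidney libraries were at 663, 609 and 592 TPM, inside the range of the tubules. The log2 difference of 0.11 ± 0.09 (SE) did not pass the test (adjusted p = 0.279), and its 95% interval ran from -0.07 to 0.30. Within libraries the SLC17 pair and Abcg2 stood in a different proportion in the 2 sample types. The ratio of Slc17a3 to Abcg2 was 1.56 to 2.13 in the tubules and 1.04 to 1.29 in whole kidney, and that of Slc17a1 to Abcg2 was 1.88 to 2.38 and 1.57 to 1.64, with no overlap for either. These ratios do not depend on how the libraries are scaled by a common factor.

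Xdh, the urate-forming enzyme, went the other way. It was at 4.95, 4.35, 4.10 and 4.68 TPM in m1 replicates 1 to 4, at 4.34, 4.33, 4.12 and 5.48 TPM in those of m2, and at 4.18, 3.61, 3.83 and 4.51 TPM in those of m3. The kidney libraries were at 7.41, 8.16 and 9.11 TPM, above every tubule. The log2 difference was -0.78 ± 0.11 (SE, adjusted p = 1.77e-05), with a 95% interval of -1.01 to -0.55, and the added 1 TPM understates the change of so low a gene. Fewer cells of a type and less RNA per cell cannot be told apart in such bulk libraries. The endothelium, a known site of Xdh expression, moved with it: all 7 endothelial markers were lower in every tubule than in every kidney, and their median sum in the tubules was 14.7% of the kidney mean. The mean Xdh level of the tubules was 53.2% of its kidney mean. The part of the endothelium in this difference was not tested.

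Slc2a9 was near the low end of what was tested. It was at 2.37, 2.11, 1.95 and 1.12 TPM in m1 replicates 1 to 4, at 1.31, 1.79, 1.29 and 1.31 TPM in those of m2, and at 1.65, 1.79, 1.14 and 2.37 TPM in those of m3. The kidney libraries were at 2.48, 2.39 and 2.30 TPM. Of the 12 tubules, 10 were below all kidneys and the other 2 lay among them. The log2 difference of -0.36 ± 0.16 (SE) did not pass the threshold (adjusted p = 0.0737), with a 95% interval of -0.69 to -0.02. The distal convoluted tubule markers, at 0.55 TPM or less in the tubules, moved with it, and their part in the difference was not tested.

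In counts, 2 of the 5 genes rose in the tubules, 1 fell and 2 did not pass the test. Over all 12039 genes tested, 51.2% passed, with 9.68% higher and 41.5% lower in the tubules. The groups did not overlap for 3 of the 5. Over all genes 5.76% had every tubule above every kidney and 32.0% every tubule below. The median log2 difference of the 5 was 0.11, against -0.27 over all genes tested. Relative to that median, Slc17a3 differed by 1.05, Slc17a1 by 0.77, Abcg2 by 0.38, Slc2a9 by -0.09 and Xdh by -0.51. Slc17a3 stood above 97.5% of tested genes, Slc17a1 above 93.7%, Abcg2 above 80.2%, Slc2a9 above 42.5% and Xdh above 18.8%.

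The scaling of the libraries mattered for 3 of the 5. Under median-of-ratios rescaling, which sets the median gene to a log2 difference of 0.00, Abcg2 was higher in the tubules (0.41, adjusted p = 0.000784). Slc17a1 (0.79) and Slc17a3 (1.08) remained higher and Xdh (-0.53, adjusted p = 0.000689) lower. Under quantile normalization, which gives all libraries 1 distribution and puts the median gene at 0.16, the call for Xdh was lost (-0.10, adjusted p = 0.463). Slc2a9 turned to higher in the tubules (0.46, adjusted p = 0.0431), and Abcg2 was at -0.03 (adjusted p = 0.802). Only the SLC17 pair passed in the same direction under all 25 settings tried, Slc17a1 between 0.29 and 0.79 and Slc17a3 between 0.62 and 1.08.

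**Figure D2:**
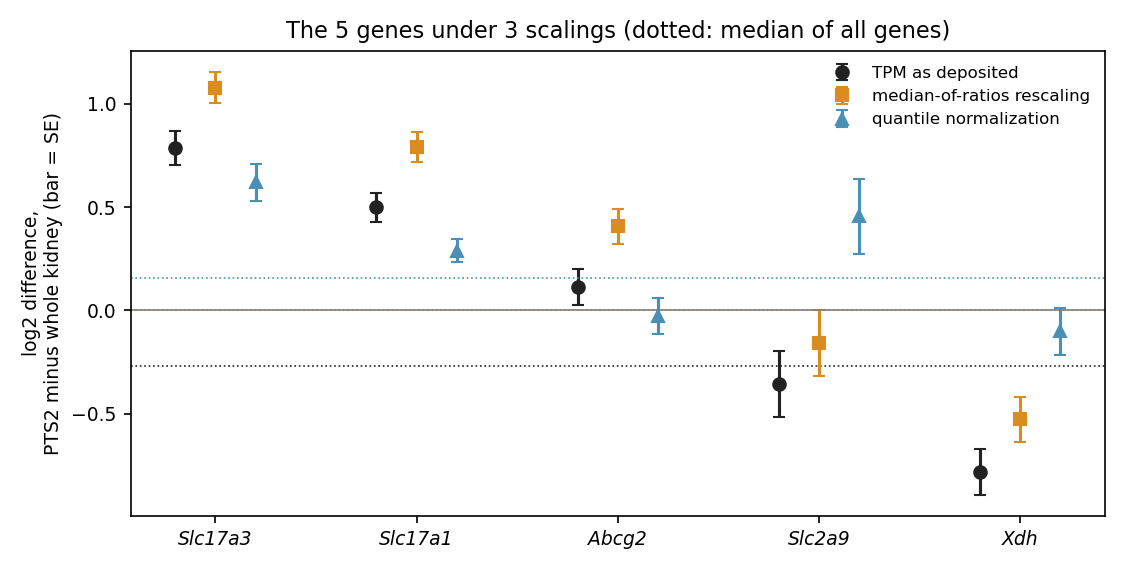
The log2 difference between PTS2 and whole kidney (vertical axis, bar = SE) is plotted for each gene under the TPM as deposited, median-of-ratios rescaling and quantile normalization, with the median of all genes as a dotted line in the colour of its scaling. Slc17a3 and Slc17a1 lie above 0 under all 3, whereas Slc2a9 changes sign.

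Of the 11 other carriers linked to urate, 9 were abundant enough to test. Of these, 2 were called higher and 3 lower, beside 9.68% higher and 41.5% lower of all genes tested. Whether this or the following lists differ from all genes was not tested. Slc22a7 (OAT2, an organic anion carrier) and Slc22a13 (OAT10, an apical one) rose, whereas Slc22a8 (OAT3, basolateral), Abcc4 (an ATP-driven anion pump) and Slc2a12 (a glucose carrier family member that also moves urate) fell. Slc22a7 was at 644 to 1711 TPM (median 1271) in the tubules and at 418, 299.6 and 283 TPM in the kidneys, with no overlap and a log2 difference of 1.84 ± 0.25 (SE, adjusted p = 1.19e-05). Slc22a13 was at 87.1 to 487 TPM (median 280.2) against 78.1 to 99.6 TPM, with 11 of 12 tubules above all kidneys (1.70 ± 0.38, SE, adjusted p = 0.00148). Slc22a8 was at 24.7 to 161 TPM (median 52.9) against 261 to 284 TPM, below every kidney in every tubule (-2.21 ± 0.47, SE). Abcc4 was at 0.75 TPM or less against 7.18 to 8.90 TPM, and Slc2a12 at 0.75 TPM or less against 4.09 to 6.27 TPM.

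The other 4 tested carriers did not pass. Slc22a12 encodes URAT1, the apical exchanger that reabsorbs urate. It was at 679 to 882 TPM (median 739) in the tubules and at 775, 781 and 588 TPM in the kidneys, a log2 difference of 0.07 (adjusted p = 0.512, 95% interval -0.12 to 0.26). Slc22a6 (OAT1), the basolateral anion exchanger, was at 339 to 988 TPM (median 591) against 512, 511 and 435 TPM (0.17, adjusted p = 0.670, 95% interval -0.48 to 0.82). Slc16a9 and the ATP-driven pump Abcc2 differed by 0.35 and 0.42, with adjusted p of 0.0796 and 0.0703. Under median-of-ratios rescaling Slc22a12, Abcc2 and Slc16a9 were called higher, and under quantile normalization Abcc2 and Slc16a9. Over all genes these scalings called 2827 of 11955 and 4164 of 12039 higher. The list's median was 0.17.

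The list of sodium-coupled anion carriers and scaffolds gave 3 genes higher, 1 lower and 1 not called of 5. Over all genes tested, 9.68% were higher and 41.5% lower. Pdzk1, a scaffold that binds the tails of apical carriers including URAT1, was at 1405 ± 107 TPM (SD, n = 12) and 1050 ± 23.7 TPM (SD, n = 3), a log2 difference of 0.42 ± 0.07 (SE, adjusted p = 0.000157). Slc9a3r1, the related scaffold NHERF1, rose by 0.52 and the sodium-coupled monocarboxylate carrier Slc5a8 by 0.97. Its relative Slc5a12 was at 0.01 to 0.23 TPM in the tubules and 108 to 125 TPM in the kidneys. Slc5a12 is known from S1, and the S1 marker Slc5a2 was likewise at 1.38 TPM or less against 590 to 655 TPM. The dicarboxylate carrier Slc13a3 did not pass (0.15, adjusted p = 0.623). The list's median was 0.42.

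The list drawn up for purine breakdown before Xdh was split. Of its 11 genes, 8 were tested, of which 3 rose, 2 fell and 3 did not pass, with a median of 0.08. Over all genes tested, 9.68% were higher and 41.5% lower. The list also holds Nt5c3, Nt5c3b, Aox1 and Aox3, which are not known as steps before Xdh. Nt5c3 is 1 of the 3 that rose and Nt5c3b 1 of the 2 that fell, so the counts are not those of that path alone. Pnp, which releases hypoxanthine and guanine from nucleosides, was at 60.7 to 71.6 TPM (median 67.6) against 43.3 to 60.3 TPM, with no overlap (0.33 ± 0.08, SE, adjusted p = 0.00364, or 0.0571 without kidney replicate 3). Nt5e, the surface nucleotidase that makes adenosine, was at 172 ± 53.7 TPM (SD, n = 12) against 101 ± 11.4 TPM (0.71 ± 0.23, SE, adjusted p = 0.0169). Without kidney replicate 1 or 2 its adjusted p was 0.0516 or 0.0851. Nt5c3, a cytosolic nucleotidase, rose by 0.27. Ampd3, an AMP deaminase, was at 0.95 TPM or less in the tubules and 10.6 to 13.5 TPM in the kidneys. Nt5c3b, another cytosolic nucleotidase, was at 2.13 TPM or less against 7.20 to 11.1 TPM. Ada, which turns adenosine into inosine, was too low to test, at 0 to 0.63 TPM against 2.19 to 4.04 TPM.

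Of the 4 genes that break urate down, 3 were near 0. Uox, which encodes urate oxidase, was listed at 0 in all 3 kidneys and at 0.04 TPM or less in the tubules, and Urad was listed at 0 in all 15 libraries. Urah, which acts after urate oxidase, was the single tested one, at 8.60 to 38.2 TPM (median 26.9) against 11.9 to 13.8 TPM. Its log2 difference of 0.76 did not pass (adjusted p = 0.0817) and was called higher under both rescalings.

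Purine salvage, which returns bases and nucleosides to nucleotides, had 0 of 4 genes called by limma, beside 51.2% of all genes tested. An unadjusted p under 0.05 was found for 1 of the 4, beside 6908 of 12039 genes. Hprt, which recovers hypoxanthine and guanine, was at 162 to 187 TPM (median 175) against 164 to 176 TPM (0.06, adjusted p = 0.436, 95% interval -0.07 to 0.18). Under median-of-ratios rescaling 3 of the 4 were called higher, beside 2827 of 11955 genes tested. Under quantile normalization 1 was, Aprt, beside 4164 of 12039 genes. In purine synthesis 4 of 7 tested genes fell: Prps2 (-1.74), Ppat (-0.49), Atic (-0.45) and Prps1 (-0.35), with a median of -0.35, beside 41.5% of all genes called lower and a median of -0.27 over all genes. Without kidney replicate 2 Atic did not pass (adjusted p = 0.104). Of these only Prps2 was called lower under both rescalings. Median-of-ratios rescaling called Adsl, Gart and Paics higher, and quantile normalization Gart.

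Xdh needs the molybdenum cofactor, and 2 of 6 genes for this cofactor and its enzymes were called, both higher. Of all genes tested 51.2% were called, with 9.68% higher and 41.5% lower. Mocos, the sulfurase that activates xanthine dehydrogenase, was at 7.86 to 23.2 TPM (median 15.4) in the tubules and 7.40 to 10.7 TPM in the kidneys, with 11 of 12 tubules above all kidneys. Its log2 difference was 0.70 ± 0.23 (SE, adjusted p = 0.0174, or 0.110 without kidney replicate 3), opposite in sign to that of Xdh. Mocs1, of the first step of cofactor synthesis, differed by 0.36 (adjusted p = 0.0246, or 0.0626 and 0.237 without kidney replicate 1 or 3). The list's median was -0.09.

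**Figure D3:**
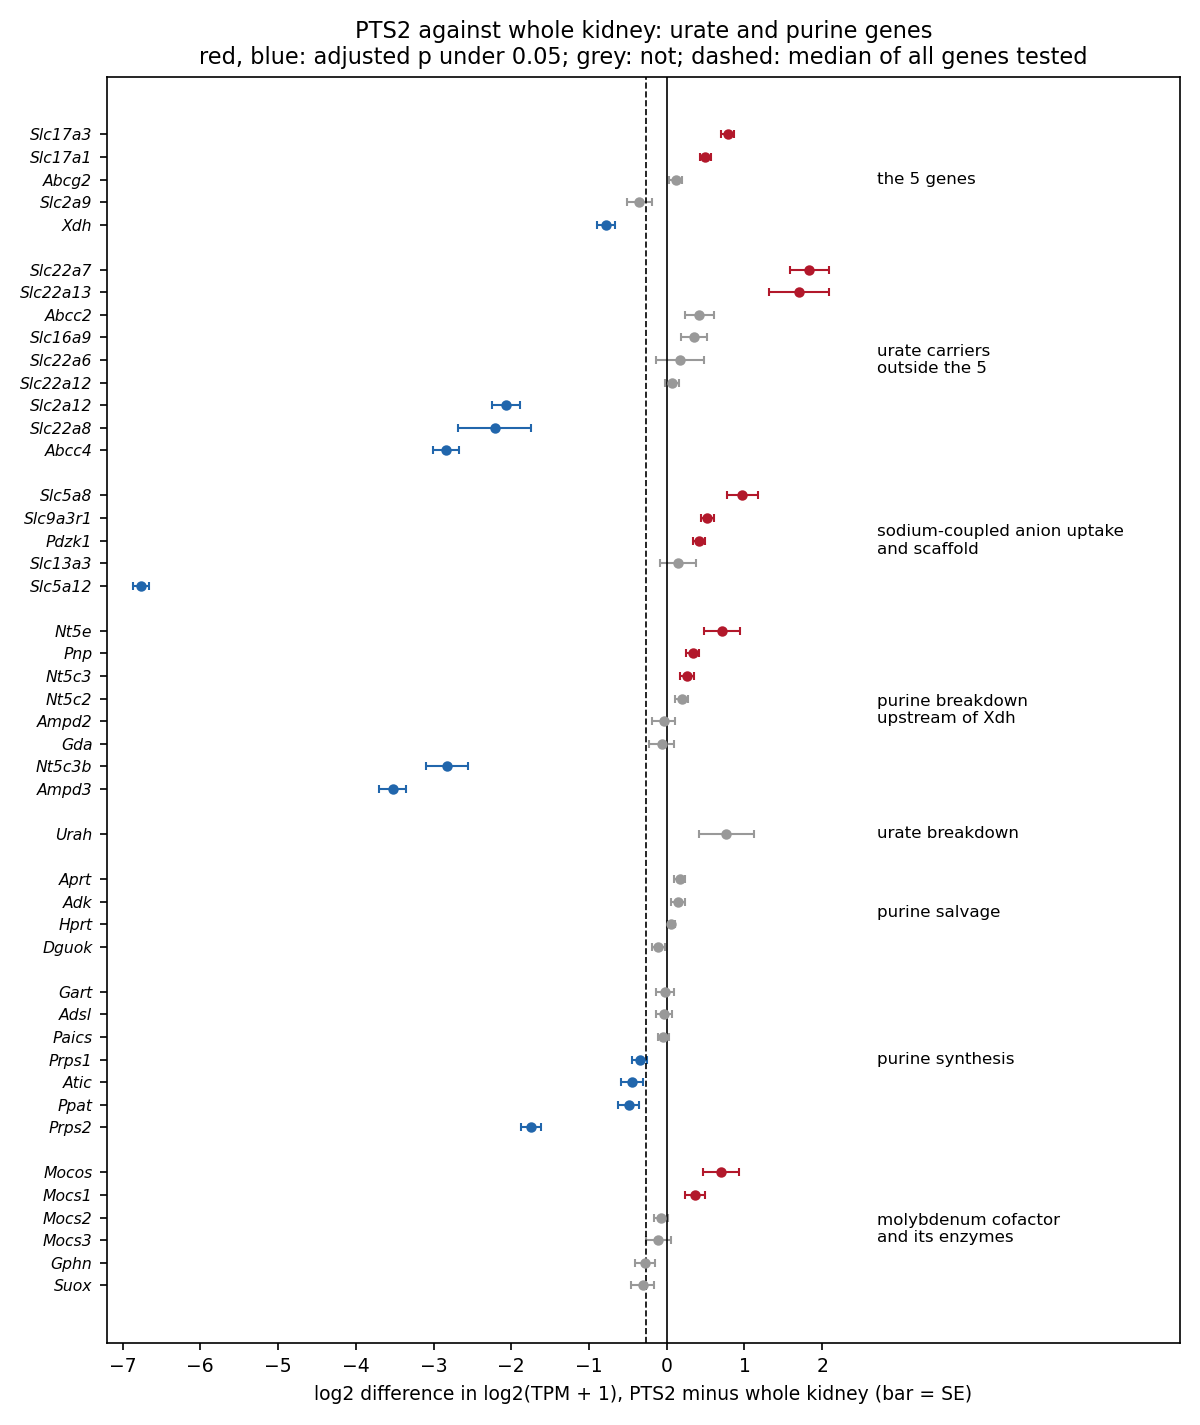
The log2 difference between PTS2 (n = 12) and whole kidney (n = 3) is plotted on the horizontal axis for each tested gene by role, with its SE as a bar, the median of all genes as a dashed line, and red or blue where the adjusted p was under 0.05. The carriers run from 1.84 for Slc22a7 to -2.84 for Abcc4, and Slc5a12 lies at -6.76.

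Among the tubules alone, the 3 abundant members varied less than the median gene of at least 100 TPM. Most genes of that group are less abundant than these 3, and no median of genes nearer to their level was taken. The coefficient of variation over 12 tubules was 6.86% for Slc17a1, 7.83% for Slc17a3 and 9.40% for Abcg2. The median was 10.1% over 1523 genes of at least 100 TPM. Of those genes 21.7% had a smaller coefficient than Slc17a1, 31.4% than Slc17a3 and 44.7% than Abcg2, so Abcg2 was close to the median. The coefficients of the other 2 members were larger. The coefficient was 11.4% for Xdh and 27.0% for Slc2a9, beside a median of 26.4% over 4854 genes between 1 and 10 TPM. The highest tubule exceeded the lowest by 1.32-fold for Slc17a1, 1.35-fold for Slc17a3, 1.34-fold for Abcg2, 1.52-fold for Xdh and 2.12-fold for Slc2a9.

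None of the 5 differed among the sets m1, m2 and m3 by the limma F test, and 0 of 5 had an unadjusted p under 0.05. Over all 11300 genes tested, 3.02% passed. The largest difference between set means was 0.10 on the log2 scale for Slc17a1 (adjusted p = 0.703), 0.10 for Slc17a3 (0.730), 0.15 for Abcg2 (0.622), 0.14 for Xdh (0.722) and 0.24 for Slc2a9 (0.733). The 95% interval of m3 minus m2 was -0.26 to 0.07 for Slc17a1, -0.07 to 0.27 for Slc17a3, -0.35 to 0.05 for Abcg2 and -0.41 to 0.13 for Xdh. For Slc2a9 the interval of m2 minus m1 was -0.65 to 0.18. A miss of the threshold does not show that the sets had equal levels.

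Tubules numbered 4 were compared with those numbered 1 within sets. By limma 0 of the 5 genes passed, with 0 at an unadjusted p under 0.05, while 4.76% of 11300 genes passed. The log2 difference was -0.06 for Slc17a1 (95% interval -0.21 to 0.09), 0.03 for Slc17a3 (-0.15 to 0.21), 0.13 for Abcg2 (-0.03 to 0.30), 0.10 for Xdh (-0.20 to 0.40) and -0.11 for Slc2a9 (-0.63 to 0.41).

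Of the 7 other urate carriers tested, 2 were higher in number 4, beside 1.69% of all genes, and 2 were lower, beside 3.07%. Slc22a8 was at 62.3, 29.4 and 24.7 TPM in number 1 of m1, m2 and m3 and at 161, 116 and 105 TPM in number 4, a log2 difference of 1.78 ± 0.23 (SE, adjusted p = 0.00263). Slc22a6 was at 642, 339 and 346 TPM in number 1 and at 988, 777 and 919 TPM in number 4 (1.07 ± 0.16, SE, adjusted p = 0.00335). The 3 pairs rose for both genes, and the groups did not overlap. How many of all genes meet this was not counted, so it adds little to the test. Slc22a13 was at 423, 487 and 392 TPM in number 1 and at 87.1, 247 and 159 TPM in number 4 (-1.51 ± 0.21, SE, adjusted p = 0.00297). Slc22a7 was at 1711, 1576 and 1428 TPM in number 1 and at 644, 842 and 843 TPM in number 4 (-1.02 ± 0.13, SE, adjusted p = 0.00263). Both were lower in number 4 of every set, which was not counted over all genes either.

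Segment markers moved with these carriers. The S3 marker Cyp7b1 was at 625, 784 and 667 TPM in number 1 and at 96.8, 265 and 260 TPM in number 4, and the S1 marker Slc2a2 rose by 0.71 on the log2 scale. Of the 3 S3 markers 2 were lower in number 4, and of the 2 S1 markers Slc2a2 was higher and Slc5a2 was too low to test. Single markers of other cells were called. Aqp3, a principal cell water channel, rose from a mean of 11.6 TPM in number 1 to 31.4 TPM in number 4 (1.36, adjusted p = 0.00543). Aqp2 was not called, and Calb1, Scnn1b and Scnn1g, too low to test, had lower means in number 4. Csf1r, of macrophages, fell from 56.2 to 25.6 TPM (-1.16, adjusted p = 0.00174). Other macrophage markers went the opposite way without a call, C1qa from 1.61 to 2.30 TPM and C1qb from 3.22 to 4.31 TPM. Cd68 and Adgre1, too low to test, also had higher means in number 4. The part of tubule position or of other cells in the carriers' difference was not tested. Without a term for the set, 0.593% of all genes passed and Slc22a6 did not (adjusted p = 0.103), whereas the other 3 carriers did. Whether the 5 genes and the 4 carriers differ in this respect was not tested.

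**Figure D4:**
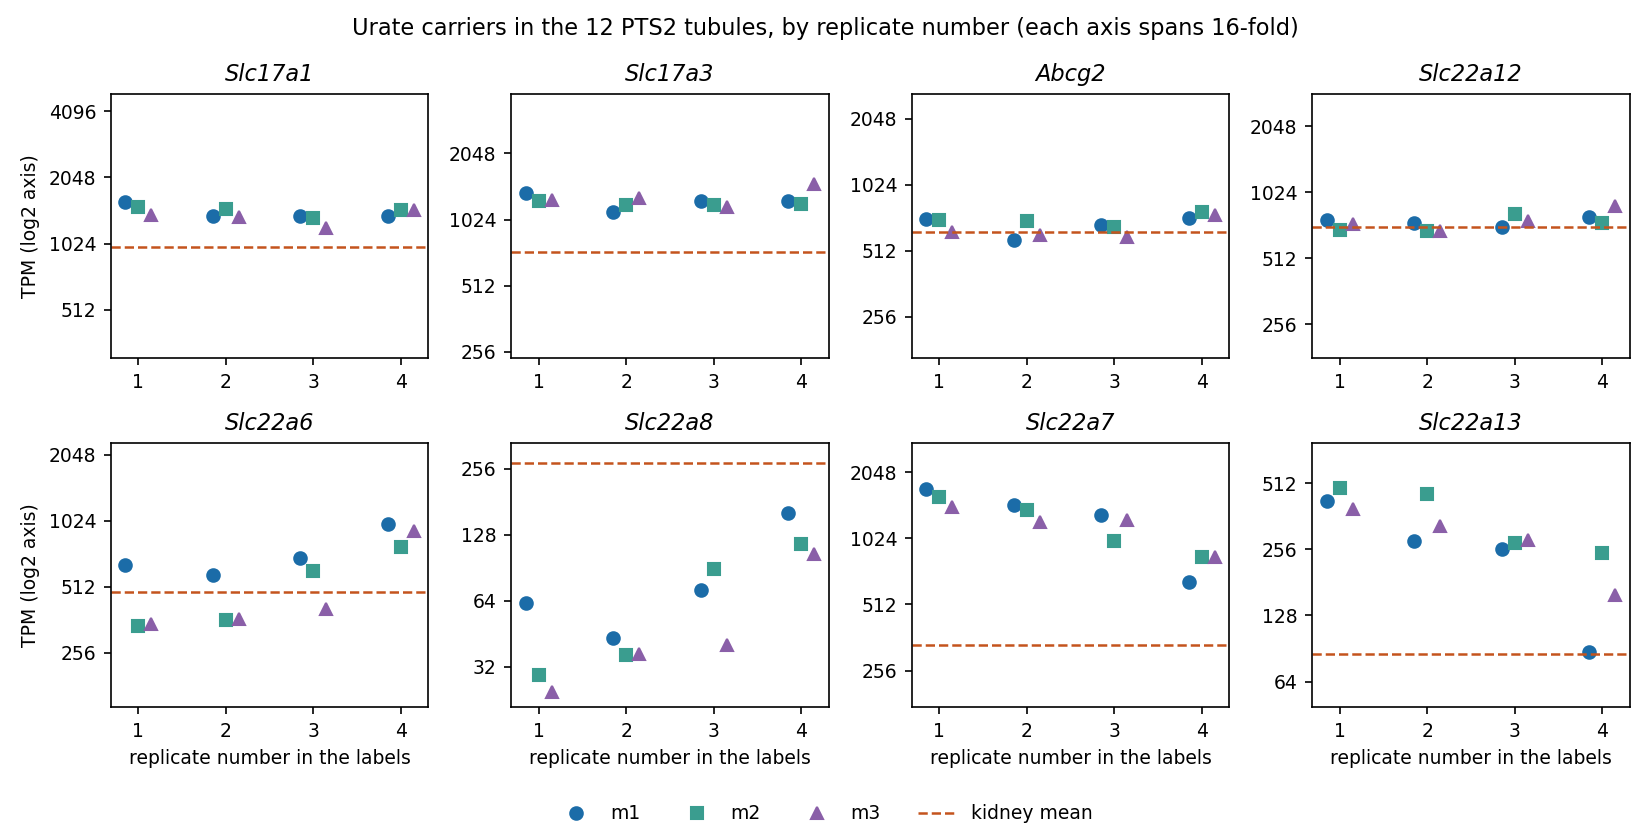
The level in TPM (log2 axis, each spanning 16-fold) of 8 urate carriers is plotted against the replicate number for the tubules of m1, m2 and m3, with the mean of 3 kidneys dashed. Slc17a1, Slc17a3, Abcg2 and Slc22a12 stay within a narrow band, whereas in number 4 Slc22a6 and Slc22a8 lie above and Slc22a7 and Slc22a13 below number 1.

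Of the 10 pairs among the 5 genes, 1 passed across the 12 tubules. Abcg2 and Xdh had Pearson's r of 0.758 (permutation p = 0.00319, adjusted over 10 pairs 0.0319) and Spearman's rho of 0.741 (permutation p = 0.00771, adjusted 0.0771). Without the 2 tubules farthest from the median of Abcg2, r was 0.871, and with set means removed it was 0.725 (adjusted permutation p = 0.0576). Leaving out single tubules moved the adjusted p above 0.05 in 5 of 12 cases, to at most 0.114 without m3 replicate 3. The others were m2 replicates 3 and 4 and m3 replicates 1 and 2. Both genes were highest in number 4: the means of numbers 1 to 4 were 681, 627, 642 and 747 TPM for Abcg2 and 4.49, 4.10, 4.02 and 4.89 TPM for Xdh. With the mean of each number removed and permutation within numbers, an alternative chosen after seeing the data, r fell to 0.496 and did not pass (adjusted permutation p = 0.335). In that alternative the 1 pair that passed was Slc17a1 with Abcg2 (r 0.883, adjusted permutation p = 0.0440), which over the tubules as they are had r of 0.664 (adjusted permutation p = 0.0743). The SLC17 neighbours had r of 0.474 (permutation p = 0.120, adjusted 0.172) and rho of 0.413 (permutation p = 0.183, adjusted 0.261), which did not pass. Without the 2 farthest tubules r was 0.279. All values of a library share its scaling and total.

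The genes most like each member over the 15 libraries were ranked by the root mean square difference of centred log2(TPM + 1), among 6737 genes of at least 10 TPM. For Slc17a1 they were Cat, encoding catalase (0.0707), the lipid droplet gene Plin2 (0.0708) and Pdzk1 (0.0727), beside a deviation of 0.218 of Slc17a1 from its own mean. For Slc17a3 they were Pgm2 (0.0823), Aldh8a1 (0.0843) and Coasy (0.0913), beside 0.336. For Abcg2 they were Sord, the sorbitol dehydrogenase gene (0.0624), Hspd1 (0.0736) and Gm6652 (0.0763), beside 0.130. For Xdh they were Rbm39 (0.0967), Mcl1 (0.111) and Clk1 (0.111), beside 0.336. For Slc2a9 the nearest genes, Gars (0.149), Lrrc41 (0.149) and Ctnnbl1 (0.156), were less close, beside 0.253.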

How the data were processed

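The 5 genes, the gene lists and the markers were chosen with earlier results of these data known. The authors deposited 1 table of TPM for 47069 genes with mouse Ensembl IDs and symbols. Per the labels' protocols, polyA RNA was turned into cDNA with a low-input kit and sequenced on an Illumina HiSeq instrument. The submitters' processing notes name STAR 2.5.1b, RSEM 1.2.31 and GRCm38.p5, without further settings. Of the table's columns, 4 hold the authors' means and standard errors and were not used. Coordinates are from GENCODE M21 and promoters from RefSeq, both on GRCm38. No promoter of Xdh was used here.

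Groups follow the description labels. Models on log2(TPM + 1) were fitted in limma 3.58.1 (R 4.3.3), with a mean-variance trend, Benjamini-Hochberg adjustment over all genes tested and a threshold of 0.05. A gene entered a fit if its mean over the fitted libraries reached 1 TPM. PTS2 against whole kidney took the set as a correlated block (correlation 0.0669), and number 4 against 1 took the set as a fixed term. The fits were also run on simulated data, whose outcome is not reported here and is not relied on. Correlations used 100000 two-sided permutations in Python 3.11.15. No 2 columns were identical. Genes were named by rule: the 5, 10 further urate and purine genes, up to 4 called genes of a list and comparison with the largest differences, and 3 nearest genes for each of the 5. Other list genes and markers were named after their values were seen, to complete a count. Some genes that met the rule, and 1 list, are not reported here. Alternatives were other pseudocounts, filters, scalings and blocks, 1 mean per set, mitochondrially encoded genes left out, and each library left out in turn.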

Additional observations from a re-analysis of the deposited data

Results flagged for a closer look

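Dixon's test at the 95% level was applied to 15 genes in each set of 4 tubules, 45 tests in all, of which 7 found a tubule far from the other 3. Chance alone gives about 1 in 20. In m1, replicate 1 had 1583 TPM of Slc17a1, whereas the next tubule had 1371 TPM. In m2, replicate 1 had 1245 TPM of Slc17a3 (next 1200 TPM), replicate 2 had 1.79 TPM of Slc2a9 (next 1.31 TPM) and replicate 4 had 5.48 TPM of Xdh (next 4.34 TPM). In m3, replicate 4 had 919 TPM of Slc22a6 (next 406 TPM). Uox was at 0.04 TPM in m1 replicate 1 and at 0.01 TPM in m3 replicate 2, with the other 3 tubules of each set listed at 0. With 3 equal values any other value is found, so these 2 of the 7 carry no information on Uox.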

How the results depend on the processing

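For PTS2 against whole kidney, 6161 genes passed, or 9399 with no filter on low values, 3113 with a mean of at least 10 TPM, and 4761 to 6712 with single libraries left out. The split between higher and lower moved with the scaling, from 1165 and 4996 in TPM to 2827 and 2767 after median-of-ratios rescaling and 4164 and 2273 after quantile normalization. Among the sets 341 genes passed, or 196 with no filter and 197 to 563 with single libraries left out. For number 4 against 1, 538 passed, or 175 with no filter, 67 with no set term and 249 to 757 with single libraries left out.

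Slc17a1 and Slc17a3 passed against whole kidney in 25 of 25 settings, Xdh in 23 of 24, Slc2a9 in 3 of 24 and Abcg2 in 1 of 25. Quantile normalization gave 0.46 for Slc2a9, -0.028 for Abcg2, -0.10 for Xdh, 0.30 for Atic and -0.074 for Slc22a12. Median-of-ratios rescaling gave 0.41 for Abcg2 and 0.22 for Mocs2, and 0.0082 for Slc17a1 between numbers 4 and 1. Slc2a9 was called lower with 1 mean per set (-0.34, adjusted p = 0.0451) and without m3 replicate 4 (-0.39, adjusted p = 0.0453), and its range with single libraries left out was -0.39 to -0.32. That range was -0.061 to 0.14 for Slc22a12 against whole kidney. Between numbers 4 and 1 it was -0.36 to 0.14 for Slc2a9, -0.060 to 0.086 for Slc17a3 and -0.0041 to 0.0478 for Pnp. Mocs2 and Slc5a8, called between numbers 4 and 1, lost the call in 6 and 9 of 12 such fits. The r of Slc2a9 with Abcg2 was -0.20 to 0.18 and with Xdh -0.14 to 0.30, and the number of pairs called was 0 to 3. With number means removed, chosen after seeing the data, r was 0.17 for Slc2a9 with Abcg2 and -0.43 for Slc17a3 with Xdh. The causes were not tested.

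What the numbers stand for is not stated. As a hint from the data, same-numbered tubules of different sets had a mean r of 0.143 between deviations from set means. The mean r of other pairs was -0.0481. This follows nearly from the first value, because deviations cancel within a set, and is not a second observation. Of the tubules, 9 of 12 correlated best with their own number. Of 12 same-numbered pairs 7 were over 0.1, so pairing by number was not taken as shown. A replicate block by number gave 888 genes among the sets and 6292 against whole kidney. Under that block Slc2a9 was at -0.34, Slc17a1 at 0.49, Slc17a3 at 0.76, Abcg2 at 0.06 and Xdh at -0.83, Slc13a3 at -0.018 and Slc22a6 at -0.066, with no call among the 5 changed. The depth behind the TPM is unknown, and Slc2a9 and Xdh drop out of the test at a mean of 10 TPM.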
